A study of Mus musculus with 9 samples.

Results

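Helper T cells that have not yet met antigen (naive CD4+ T cells) were compared in 2 states: taken from lymph nodes with no treatment (fresh), and after 20 h in culture with the recombinant cytokine IL-1b, 10 ng/mL (IL-1b-treated). All cells came from wild-type C57BL6/J mice, and polyadenylated RNA was sequenced. The 6 libraries, 3 of each state, were chosen by their titles out of the 9 of the study, and every gene was examined. The other 3 libraries, from cells kept 20 h in culture with no IL-1b (cultured), were fitted with them and are set beside the results. IL-1b-treated and fresh cells differ by the cytokine and by 20 h outside the lymph node, and the 2 cannot be told apart in this comparison alone. The labels give neither age, culture medium, survival factors nor purity, nor whether the replicates of a group came from separate animals or cultures, so that p-values may measure only technical spread.

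IL-1b is an inflammatory cytokine that binds the receptor Il1r1 with its partner Il1rap and signals through Myd88, the Irak kinases and Traf6 to the transcription factor NF-kB. Naive T cells are small resting cells that persist on interleukin-7 and on weak contacts of their antigen receptor with self peptides, which other cells of the lymph node present on MHC molecules. The same surroundings also provide low levels of interferon.

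Library totals lay between 13518814 and 23056686 counts. Fresh libraries separated from both kinds of 20 h culture on the first principal component (62.3% of variance). On the third (6.37%) replicate 3 of the IL-1b-treated libraries scored 39.63 and the other two -13.99 and -19.84. The median effective length of the transcript behind a count was 2359 to 2381 bases in fresh, 2100 to 2136 in cultured and 1781 to 1795 in IL-1b-treated libraries. Mitochondrial genes took 1.99 to 2.03% of fresh, 2.41 to 2.59% of cultured and 3.11 to 3.40% of IL-1b-treated counts.

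The 14 markers fixed for naive CD4 T cells were all measured, and their summed level was 8493 to 8583 CPM in fresh and 8056 to 8134 CPM in IL-1b-treated libraries. CPM is here the count scaled to a common library size with TMM factors, on which libraries can be compared but not genes of different length. Cd4, the coreceptor that gives the cells their name, stood at 881, 887 and 900.1 CPM in the fresh and 536, 559 and 539 CPM in the IL-1b-treated libraries (log2 fold change -0.71 ± 0.03, adjusted p = 1.02e-15). Here and below ± after a log2 fold change is its SE, ± after a level is the SD over n = 3 libraries, and adjusted p is the Benjamini-Hochberg value over all genes tested, by quasi-likelihood test in edgeR. The invariant receptor chain Cd3e likewise fell, from 397 to 219 CPM. Both defining markers were thus present in all 6 libraries, at lower levels after culture. Over the whole list 4 of 14 rose and 8 fell, where 32.9% of all genes tested rose and 32.6% fell. A gene said below to rise or fall by a number, with no unit, did so by that log2 fold change of IL-1b-treated over fresh and passed the same threshold of 0.05.

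Markers of B cells, neutrophils and NK cells were higher in fresh libraries, as were most myeloid markers tested. The sums of the myeloid and CD8 T cell lists were lower there. All 22 B cell markers were lower in IL-1b-treated cells, with a median log2 fold change of -3.99, and their sum fell from 877 to 977 CPM in the fresh libraries to 353 to 375 CPM, about the level of cultured cells (334 to 351 CPM). Most of what was left belonged to Ighm, the heavy chain of IgM, and Cd37, a tetraspanin that T cells also make. In a bulk sample, fewer cells of a type and less RNA per cell cannot be told apart. Of 14 neutrophil markers 5 passed the filter on low counts and all 5 were lower, their sum going from 13.3 to 25.5 CPM to 0 to 1.08 CPM. The chemokine receptor gene Cxcr2 had 244 counts over the fresh and 0 over the IL-1b-treated libraries, at least 75.3-fold lower against a floor of 3 counts over the group. The granule gene S100a9 had 127 and 1, a ratio of 118 (exact 95% counting interval 20.7 to 4680, counting error only). Of 12 myeloid markers tested 8 fell and 2 rose, with a median of -3.59. The sum of the list went the other way, from 50.5 to 57.6 CPM in fresh to 59.7 to 68.4 CPM in IL-1b-treated libraries. The CD8 T cell sum was 41.1 to 42.7 CPM and 61.6 to 74.4 CPM. Of the NK cell markers, 5 of 6 NK cell markers fell, or 3 of 6 without fresh replicate 2, with Prf1, the pore-forming protein of killer cells, going from 52.2 to 11.8 CPM. Eomes, a factor of NK and memory cells, and the receptor gene Klrk1 fell by 3.61 and 1.92, and the granzyme gene Gzma and the receptor gene Klrd1 fell by 2.22 and 0.71. The call of Gzma was lost without fresh replicates 2 or 3 or IL-1b-treated replicates 1 or 3, and that of Klrd1 without fresh replicates 1 or 2 or IL-1b-treated replicate 2. The macrophage gene Mpeg1 went from 4.68 to 0.136 CPM. Cst3, the inhibitor cystatin C, rose from 22.3 to 55.9 CPM, a larger step than that of the myeloid sum. Of 3 gamma delta T cell markers tested, the receptor constant segment Tcrg-C1 rose by 3.04, the kinase gene Blk fell by 3.77 and the segment Trdc was not called, at 7.91 and 5.94 CPM, though it was called lower without fresh replicate 3 or IL-1b-treated replicate 1 (adjusted p = 0.036 and 0.0348), with library size alone and on TPM. The platelet integrin Itga2b was not called either, at 2.91 and 3.34 CPM, but was called higher by 0.7 with the GC and length trend described below removed (adjusted p = 0.0244). The chains Cd8a and Cd8b1 of the cytotoxic lineage rose, Cd8b1 from 14.1, 13.7 and 14.8 to 35.3, 34.4 and 37 CPM. The endothelial and T cell adhesion gene Pecam1 rose from 285 to 388 CPM, with a change of sign on TPM. The granule and receptor genes Ltf and Csf3r, the integrin Itgax and the globin Hba-a1 were each at 3 counts or fewer over the IL-1b-treated libraries, against 91 to 151 over the fresh ones. The part of other leukocytes in the decreases below was not tested.

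**Figure D1:**
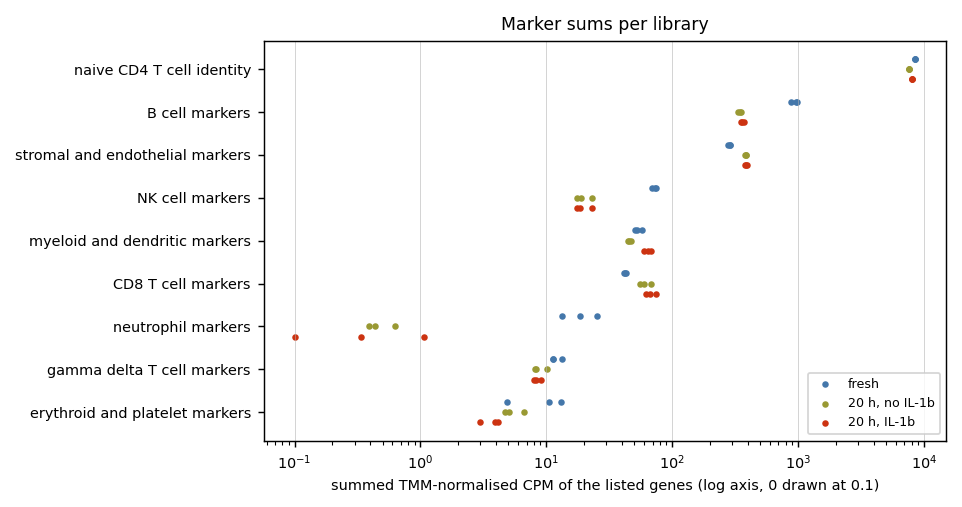
Summed TMM-normalised CPM of each marker list (log axis) in each of the 9 libraries, 1 point per library, with a sum of 0 drawn at 0.1. B cell sums lie at 877 to 977 CPM in fresh and 353 to 375 CPM in IL-1b-treated libraries, while the naive CD4 T cell sums lie at 7586 CPM or above in all 9.

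Culture with IL-1b changed most of the transcriptome. Of 13043 genes tested, 8539 (65.5%) differed between IL-1b-treated and fresh cells at an adjusted p threshold of 0.05, with 4287 (32.9%) higher and 4252 (32.6%) lower. At least 2-fold changes were seen in 1313 genes upward (10.1%) and 1250 downward (9.58%), and the median called gene differed 1.62-fold. The IL-1b-treated and cultured libraries, compared in the same fit, differed in 3768 genes (28.9%), 2037 higher (15.6%) and 1731 lower (13.3%), with 34 at least 2-fold higher (0.261%) and 82 at least 2-fold lower (0.629%). Cultured and fresh cells differed in 7594 genes (58.2%). These 3 comparisons share libraries, so each one's own values are given side by side.

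Direction depended on how the libraries were put on 1 scale. With TMM the median gene lay at -0.01 on the log2 scale, with library size alone at -0.18, and on the TPM scale, the difference of mean log2(TPM + 0.5), at -0.5. List medians on the TPM scale are given below as they stand and are to be read against that -0.5. Directions below are relative to the TMM reference, and 1586 of the 8539 called genes changed sign on TPM. Short transcripts were higher and long ones lower in IL-1b-treated cells. The fifth of genes with the shortest transcripts (13 to 1046 bases of effective length) lay at a median of 0.46 (1261 higher, 327 lower), and the fifth with the longest (3526 to 122960 bases) at -0.25 (564 higher, 1319 lower). Culture alone showed the same order at smaller size, from 0.27 to -0.12. Once the trend of each library over GC content and length had been taken out, the 5 classes lay between 0.01 and 0.15, 7945 genes (60.9%) were called, 4581 higher (35.1%) and 3364 lower (25.8%), 6578 of the 8539 kept their call and direction, and 712 had the other sign. Whether RNA quality or the cells themselves gave the trend was not tested.

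**Figure D2:**
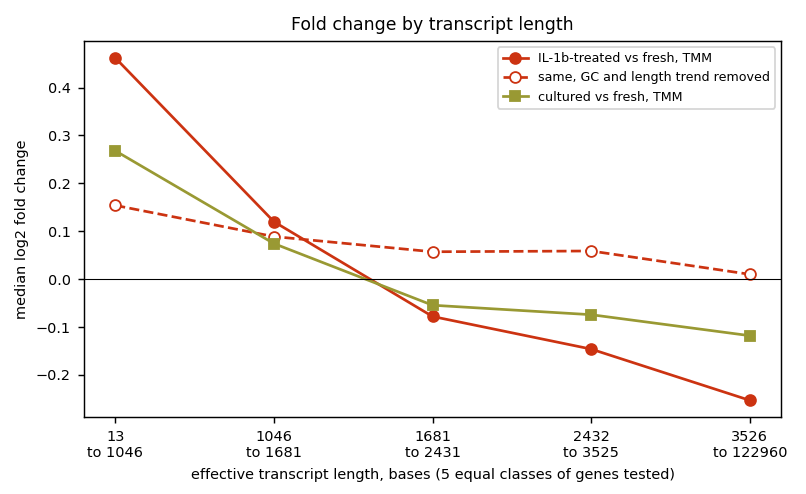
Median log2 fold change of the genes tested in 5 classes of equal size by effective transcript length, for IL-1b-treated against fresh cells with TMM scaling (filled circles), the same after taking out the GC content and length trend (open circles) and cultured against fresh cells (squares). The filled circles go from 0.46 in the shortest to -0.25 in the longest class and the open ones from 0.15 to 0.01.

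Among the 4884 genes with clearly separated libraries and at least 10 TPM in a group, the largest increase was at Map6, a microtubule-stabilising protein, with 0.455, 0.297 and 0.422 CPM in the fresh and 28.5, 32.7 and 36.6 CPM in the IL-1b-treated libraries (log2 fold change 6.33 ± 0.18, adjusted p = 1.21e-18). Myo6, a myosin that moves towards the minus end of actin filaments, stood at 24, 22.4 and 25.9 CPM in the fresh and 725, 747 and 729 CPM in the IL-1b-treated libraries (log2 fold change 4.93 ± 0.04, adjusted p = 1.35e-27). Il2ra, the alpha chain that gives the interleukin-2 receptor its high affinity, had 1.82, 1.01 and 2.11 CPM in the fresh and 40.8, 42 and 49 CPM in the IL-1b-treated libraries (log2 fold change 4.73 ± 0.15, adjusted p = 1.09e-17). In all 3 genes each IL-1b-treated library lay far above each fresh one. The secreted matrix protein gene Ecm1 rose from 35.1, 30.8 and 33.2 to 792, 842 and 823 CPM, the zinc transporter gene Slc30a4 from 13.9, 18.9 and 16.1 to 383, 376 and 371 CPM.

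In each of the 30 genes with the largest changes the cultured libraries also lay on the IL-1b-treated side of the fresh ones. Cultured cells had 40.1 ± 0.841 CPM of Map6, 40.7 ± 1.57 of Il2ra and 352 ± 11 of Slc30a4, and for Il2ra and Slc30a4 the 2 kinds of culture did not differ by the test (log2 fold change 0.11 ± 0.1, adjusted p = 0.485 and 0.1 ± 0.05, adjusted p = 0.123). For Map6 and Ecm1 the level with IL-1b was the lower one (-0.3 ± 0.1, adjusted p = 0.0237 and -0.31 ± 0.03, adjusted p = 1.80e-07). A further step up with IL-1b was called for Rgs1, which shuts off G protein signalling, from 35.6 ± 1.53 CPM in cultured to 53.9 ± 3.44 CPM (0.6 ± 0.09, adjusted p = 2.28e-05), against 3.42 CPM in fresh cells. The same held for Gpr34, a lysophosphatidylserine receptor, at 6.37, 8.55 and 7.39 CPM in fresh, 96.6 ± 5.88 CPM in cultured and 125, 123 and 127 CPM in IL-1b-treated libraries. Gbp11, of the guanylate-binding proteins, and Mir142hg, the host of miR-142, rose by 3.95 and 3.62 against fresh. Mir17hg, the host of the miR-17-92 cluster, rose by 3.54 and Cdk6, a kinase of G1 entry, by 3.49. The inhibitory receptor gene Ctla4 went from 3.6, 4.87 and 4.58 to 47.5, 50.7 and 41.1 CPM and Tnfrsf4, the costimulatory receptor OX40, from 4.38, 3.74 and 5.77 to 46.9, 49.4 and 43.5 CPM. The list was completed by the adhesion gene Jaml and the dynein regulator gene Drc1, which rose by 4.25 and 3.75.

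**Figure D3:**
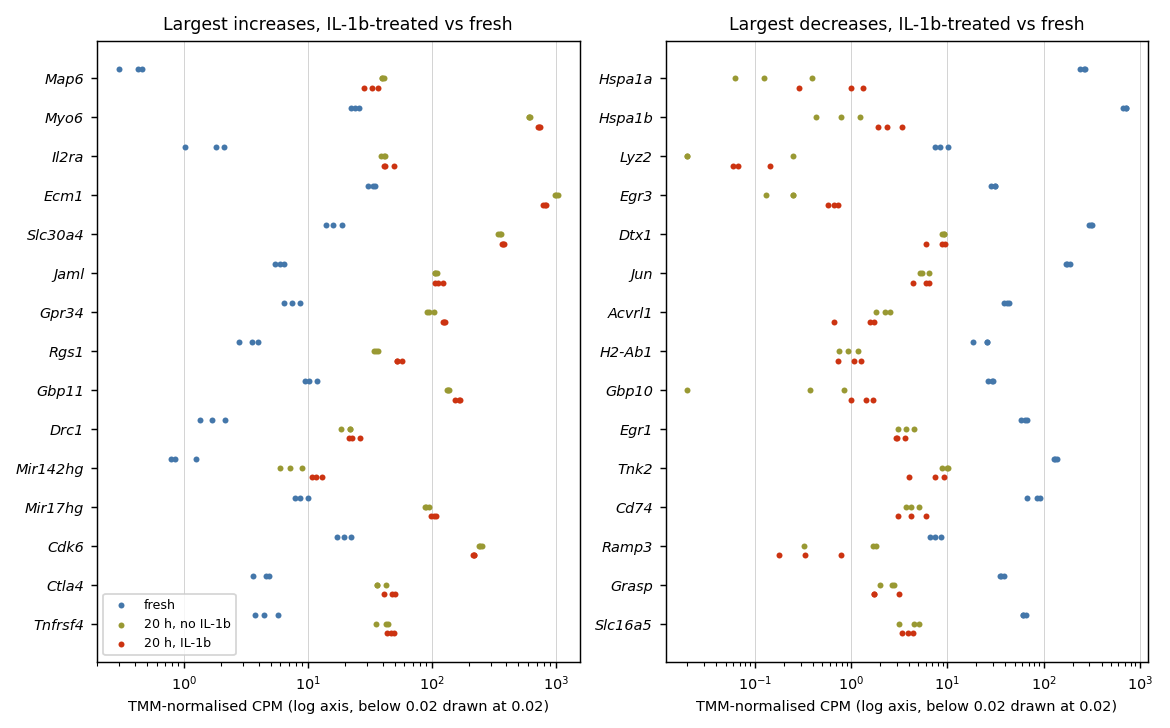
TMM-normalised CPM (log axis) of the 15 genes with the largest increases (left) and the 15 with the largest decreases (right) between IL-1b-treated and fresh cells, 1 point per library, with values below 0.02 drawn at 0.02. In each gene the 3 fresh points lie apart from the 3 IL-1b-treated ones, and the cultured points lie on the side of the IL-1b-treated ones.

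The largest decreases included those of a pair of chaperone genes. Hspa1b, an inducible Hsp70 chaperone, had 725, 676 and 712 CPM in the fresh and 1.92, 2.37 and 3.42 CPM in the IL-1b-treated libraries (log2 fold change -8.11 ± 0.09, adjusted p = 8.80e-26), and its near-identical neighbour Hspa1a, whose reads RSEM can split between the 2, had 266, 241 and 265 CPM in the fresh and 1.32, 0.287 and 1.01 CPM in the IL-1b-treated libraries. Cultured cells had less still, 0.82 ± 0.407 CPM of Hspa1b, so that with IL-1b it was 3.09-fold higher than without (1.63 ± 0.28, adjusted p = 9.87e-05). Egr3 and Egr1, early growth response factors that rise within minutes of receptor signalling, fell by 5.51 and 4.31, with 64.6, 58.9 and 67.6 CPM in the fresh and 3.0, 3.66 and 2.95 CPM in the IL-1b-treated libraries for Egr1. Jun, a subunit of the AP-1 factor, stood at 190.3, 176 and 172 CPM in the fresh and 4.39, 5.96 and 6.44 CPM in the IL-1b-treated libraries (log2 fold change -5.01 ± 0.1, adjusted p = 1.18e-21). Dtx1, a Notch pathway ubiquitin ligase linked to T cell anergy, went from 314, 297 and 318 to 6.01, 9.48 and 8.79 CPM. In these genes the fresh libraries were all high and the 6 cultured libraries of both kinds all low.

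Genes of other kinds completed the list of decreases. Lyz2, H2-Ab1 and Cd74 are lysozyme and MHC class II genes of myeloid and B cells, and Cd74 went from 67.7, 91.7 and 85.5 to 6.01, 4.17 and 3.09 CPM beside the fall of the B cell markers given above. Receptor and scaffold genes were another kind, with the bone morphogenetic protein receptor gene Acvrl1 at 39.2, 41.4 and 43.8 CPM in the fresh and 1.74, 1.58 and 0.671 CPM in the IL-1b-treated libraries, the receptor partner gene Ramp3 down by 4.13, the kinase gene Tnk2 by 4.29 and the scaffold gene Grasp by 4.05. The monocarboxylate carrier gene Slc16a5 fell from 62.4 to 3.9 CPM. Gbp10, whose sequence is close to that of other guanylate-binding protein genes, fell by 4.36 while its relative Gbp11 rose.

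The receptor of the added cytokine was not detected. Il1r1 had 0 counts in each of the 9 libraries, where 3 counts would be 0.130 to 0.222 CPM before TMM scaling. Its partner Il1rap had 19.3, 14.6 and 20.1 CPM in the fresh and 17.2, 18.2 and 15.6 CPM in the IL-1b-treated libraries and was not called (log2 fold change -0.08 ± 0.13, adjusted p = 0.596), though limma on log2(TPM + 1) called it lower by 0.57 (adjusted p = 0.00972). Over the receptor family and its adaptors, 10 of 18 genes tested were lower and 3 higher, with a median of -0.27, a count that became 7 lower and 6 higher with the trend removed. The NF-kB kinase gene Ikbkb fell from 420.1, 406 and 434 to 321, 296 and 306 CPM. Irak4, the first kinase after Myd88, fell from 32.4, 31.5 and 37.5 to 17.7, 15.2 and 14 CPM, and Tab2, which links Traf6 to its kinase, by 0.34. Sigirr, an inhibitory member of the family, was higher by 0.45 with TMM scaling and changed sign on TPM. Between the 2 kinds of culture 3 of the 18 genes were called, all lower with IL-1b, or 1 higher and 1 lower with the trend removed. Of all genes tested 28.9% were called in that comparison before the trend was removed. The share with the trend removed is not given here.

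NF-kB subunits and target genes were lower than in fresh cells, 19 of 26 against 3 higher, with a median of -0.65. Nfkb1, the p105 precursor of the p50 subunit, fell from 313, 296 and 321 to 128, 127 and 132 CPM (log2 fold change -1.27 ± 0.04, adjusted p = 1.53e-17). Tnfaip3, the ubiquitin-editing brake A20, had 71.1, 70.8 and 81.6 CPM in the fresh and 32.8, 32.5 and 30.4 CPM in the IL-1b-treated libraries, and its partner Tnip1 fell by 0.94. Bcl3, an atypical NF-kB inhibitor protein, fell from 49.6, 39.1 and 43.6 to 9.07, 10.4 and 10.9 CPM. The classical target Nfkbia, the inhibitor that NF-kB induces against itself, moved least of those named, with 118, 116 and 111 CPM in the fresh and 107, 100.4 and 97.8 CPM in the IL-1b-treated libraries (log2 fold change -0.18 ± 0.05, adjusted p = 0.00567, with the call lost at adjusted p = 0.0618 once the trend was removed). Nfkbia was higher with IL-1b than in cultured cells (0.17 ± 0.05, adjusted p = 0.0213), while Tnfaip3 was not called between them (0.04 ± 0.08, adjusted p = 0.753). With IL-1b, 3 of the 26 genes were higher and 5 lower than in culture alone, or 3 and 2 with the trend removed. Over all genes tested, before the trend was removed, 15.6% were higher and 13.3% lower in that comparison. The shares with the trend removed are not given here.

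Immediate early genes had a median of -2.08, the lowest of the lists other than markers of other cells, with 19 of 23 lower and 3 higher. Fos, the partner of Jun, stood at 140.2, 139.6 and 136 CPM in the fresh and 18, 15.9 and 19.3 CPM in the IL-1b-treated libraries (log2 fold change -2.96 ± 0.07, adjusted p = 9.14e-20), and Junb at 400.1, 373 and 432 CPM in the fresh and 51.4, 59.1 and 59.7 CPM in the IL-1b-treated libraries. The messenger decay factor Zfp36 fell from 302, 302 and 327 to 77.1, 78.6 and 82.8 CPM. The 3 cultured libraries without IL-1b had 19.4 ± 1.34 CPM of Fos and 55.9 ± 4.15 CPM of Junb, and neither gene was called between the 2 kinds of culture. Myc, the growth regulator that shares this list, was 1 of the 3 higher genes, at 81.8, 88.7 and 83.3 CPM in the fresh and 101, 93 and 92.1 CPM in the IL-1b-treated libraries (log2 fold change 0.18 ± 0.05, adjusted p = 0.00515), a call lost with library size alone and reversed on TPM.

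Interferon response genes were lower in 40 of 45 cases and higher in 4, with a median of -1.21 (-1.14 with the trend removed, -1.69 on the TPM scale). Irf7, which amplifies the type I response, fell from 83.9, 82.4 and 93.3 to 18.6, 20 and 22.8 CPM, and the antiviral gene Ifit3 from 20.7, 20.1 and 19.3 to 3.49, 4.96 and 4.5 CPM, though its reads can be shared with the near-identical Ifit3b. The DNA sensor family gene Ifi213 fell by 2.07 and Ly6e, a surface protein, by 1.22. Samhd1, which degrades deoxynucleotides, went the other way, from 602, 606 and 604 to 1043, 1029 and 996 CPM.

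The promoters of these genes and of the GTPase and MHC class I list described next often carry the binding motif of the interferon-activated factors. For that reason 3 are shown, and the changes of Oas3 and Igtp are not given here. Each is the 250 bases before the start site in RefSeq (GRCm38.p6; Ifit3 at chr19:34583279-34583528 on the plus strand, Oas3 at chr5:120777660-120777909 on the minus strand and Igtp at chr11:58199306-58199555 on the plus strand), written 5′ to 3′ on the gene's strand, with GAAA, any 2 bases and GAAA again (the interferon-stimulated response element, searched on both strands, overlaps allowed) in capitals.
Ifit3: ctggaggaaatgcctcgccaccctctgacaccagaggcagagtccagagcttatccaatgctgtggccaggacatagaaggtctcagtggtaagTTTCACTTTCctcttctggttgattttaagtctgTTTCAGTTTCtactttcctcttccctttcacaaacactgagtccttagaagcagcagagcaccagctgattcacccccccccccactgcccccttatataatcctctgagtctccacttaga
Oas3: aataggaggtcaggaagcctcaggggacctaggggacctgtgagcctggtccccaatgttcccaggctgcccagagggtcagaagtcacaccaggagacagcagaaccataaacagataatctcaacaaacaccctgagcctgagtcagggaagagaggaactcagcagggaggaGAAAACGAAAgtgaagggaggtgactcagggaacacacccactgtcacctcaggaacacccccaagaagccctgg
Igtp: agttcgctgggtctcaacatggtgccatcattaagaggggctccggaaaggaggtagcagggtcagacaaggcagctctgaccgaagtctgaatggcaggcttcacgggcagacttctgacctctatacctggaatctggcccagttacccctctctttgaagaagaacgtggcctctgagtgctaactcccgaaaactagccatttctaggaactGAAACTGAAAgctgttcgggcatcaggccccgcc
In the printed stretches, the 2 matches of Ifit3 begin 156 and 122 bases before the start, the match of Oas3 75 and that of Igtp, an interferon-inducible GTPase, 34 bases before it. The letters were found in 19 of 36 promoters of the interferon response list (52.8%) and 12 of 22 of the GTPase and MHC class I list (54.5%), against 3.04% of 27025 promoters. Of the 18 tested interferon response genes with the motif 17 were lower, with a median of -1.1, and of the 17 without it 14 were lower and 3 higher, with a median of -0.86. In the GTPase and MHC class I list, 7 of the 12 with the motif were lower and 3 higher (median -0.48), and 8 of the 10 without it were lower (median -0.9). Over all genes with a promoter entry, those with the motif were lower in 38.6% of 246 cases and higher in 35.8%, against 34.8% each way of the 8940 without it. A match describes the letters of the promoter and is not a binding site.

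Interferon-inducible GTPases and MHC class I genes fell in 22 of 30 cases and rose in 4, with a median of -0.67. The class I heavy chains H2-Q6 and H2-Q7, whose sequences are close enough to share reads, fell by 3.0 and 1.38. Tap1, a subunit of the peptide pump for class I molecules, had 494, 481 and 485 CPM in the fresh and 216, 218 and 238 CPM in the IL-1b-treated libraries. B2m, the light chain of all class I molecules, rose in contrast from 1200, 1198 and 1194 to 2370, 2221 and 2206 CPM (log2 fold change 0.92 ± 0.03, adjusted p = 1.02e-18), with 1547 ± 17.4 CPM in cultured cells. The 2 kinds of culture differed in 18 of these 30 genes, 12 higher and 6 lower with IL-1b, or 13 and 1 with the trend removed. No share over all genes is given here for the counts with the trend removed. Before the trend was removed, 15.6% of all genes tested were higher and 13.3% lower there.

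Receptors of the common gamma chain and their JAK-STAT chain moved apart. Of 18 genes tested 12 were lower and 5 higher, with a median of -0.26, or 9 lower and 8 higher with the trend removed. Jak3, the kinase bound to the shared chain, fell from 312, 292 and 312 to 34.8, 36.8 and 35.9 CPM (log2 fold change -3.09 ± 0.06, adjusted p = 3.65e-21), Stat3 from 327, 333 and 322 to 120.0, 115 and 117 CPM and Il21r, the interleukin-21 receptor, by 1.58. Stat4, the factor of interleukin-12 signalling, rose from 91.5, 90 and 95 to 303, 295 and 286 CPM and was higher with IL-1b than in culture alone (0.36 ± 0.04, adjusted p = 1.31e-07). The interleukin-7 receptor gene Il7r, on which naive cells depend, had 573, 574 and 581 CPM in the fresh and 563, 544 and 552 CPM in the IL-1b-treated libraries and was not called (log2 fold change -0.06 ± 0.03, adjusted p = 0.0992), though DESeq2, library size alone, TPM values and the trend-removed fit each called it lower. The beta chain gene Il2rb was higher by 0.29, a call lost with library size alone and reversed on TPM.

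Targets of STAT5, the factor downstream of these receptors, rose in 10 of 16 cases and fell in 4 (median 0.8, on the TPM scale 0.23, or 0.811 and 0.727 relative to the median of all genes). The 4 became 2 without fresh replicate 2 or without IL-1b-treated replicate 1, and 1 with the trend removed. Bcl2, the survival protein of resting lymphocytes, went from 229, 223 and 217 to 787, 798 and 806 CPM (log2 fold change 1.84 ± 0.03, adjusted p = 5.83e-23), and was somewhat higher still in cultured cells at 923 ± 12.3 CPM (-0.21 ± 0.03, adjusted p = 3.39e-06). The kinase gene Pim1 rose from 102, 102 and 107 to 391, 422 and 411 CPM. Mcl1, another survival protein, had 554, 540.3 and 565 CPM in the fresh and 1136, 1167 and 1139 CPM in the IL-1b-treated libraries. In all of these the fresh libraries were lower than the other 6.

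Of 19 pro-apoptotic genes 10 rose and 4 fell (median 0.59, on the TPM scale 0.13, where 8 fell, or 0.595 and 0.631 relative to the median of all genes). The death receptor gene Fas went from 17.5, 19.2 and 15.8 to 39.2, 43.8 and 43.5 CPM, and the initiator Casp8 from 161, 157 and 145 to 267, 280.1 and 264 CPM. Bcl2l11, the Bim protein that opposes Bcl2, rose by 0.83, a call lost in the TPM values (adjusted p = 0.0819 with limma on log2(TPM + 1)). Cycs, cytochrome c, rose by 1.08. The 12 survival genes tested rose in 3 and fell in 6 cases, with the caspase-8 inhibitor Cflar and the kinase subunit Pik3r1 down by 0.48 and 0.7. Targets of p53 had 7 members up and 6 down among 23 (4 and 12 by limma on log2(TPM + 1), named TPM counts from here on, but 10 and 3 with the trend removed). Over all 13043 genes tested the TPM counts were 1527 higher and 7113 lower, against which those of each list are to be read. Sesn1, a stress-responsive regulator of growth signalling, stood at 121, 119 and 119.8 CPM in the fresh and 414, 412 and 415 CPM in the IL-1b-treated libraries (log2 fold change 1.79 ± 0.03, adjusted p = 4.98e-22). Rps27l, Trp53inp1 and Ccng1, all named as p53 targets, rose by 2.0, 0.67 and 0.54, the last with a change of sign on TPM. Cdkn1a, the classical p53 target and cell cycle brake, had at most 0.805 CPM in these 6 libraries and was not called (log2 fold change 1.67 ± 0.89, adjusted p = 0.107), though it was without fresh replicate 3 (adjusted p = 0.0055).

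Antigen receptor genes were mostly lower, 17 of 27 against 8 higher (median -0.52, on the TPM scale -1.11). The restraining receptors Cd5 and Cd6 fell most clearly, Cd5 from 423, 414 and 426 to 160.2, 173 and 162 CPM (log2 fold change -1.35 ± 0.04, adjusted p = 8.39e-19) and Cd6 from 511, 502 and 499.5 to 166, 162 and 173 CPM. Cd3d, a short invariant chain, rose from 279.7, 272 and 267 to 526, 516 and 528 CPM against the fall of Cd3e, and Txk, a Tec family kinase, rose by 1.06. Cd5 is known to be set by tonic receptor signals. Of the 27 genes, 9 were higher and 9 lower with IL-1b than in culture alone, or 9 and 3 with the trend removed. For the counts with the trend removed no share over all genes is given here. Before the trend was removed, 15.6% of all genes tested were higher and 13.3% lower there.

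Costimulatory and inhibitory receptors had 12 members down and 6 up among 23, with a median of -0.37, but the 5 that rose at least 2-fold included receptors of the tumour necrosis factor family. Tnfrsf18, the receptor GITR, stood at 30, 30.6 and 28.3 CPM in the fresh and 216, 251 and 236 CPM in the IL-1b-treated libraries (log2 fold change 2.98 ± 0.06, adjusted p = 8.07e-22), and Tnfrsf26 rose from 44.1 to 189.8 CPM. Among activation and memory markers 10 rose and 11 fell of 24. Cd69, an early activation antigen, fell from 48, 47.9 and 53.1 to 9.44, 10.8 and 13.2 CPM, and Cd44, the memory marker that is low on naive cells, from 16.9, 21.8 and 21.9 to 5.83, 4.09 and 4.63 CPM. S100a10, a partner of annexin A2, rose from 60.2, 55.6 and 64.3 to 259, 271 and 262 CPM, and Nt5e, the ectoenzyme CD73, by 1.14. High Il2ra stood beside low Cd69 and Cd44 in the same libraries.

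Helper lineage genes were lower in 11 and higher in 5 of 17 cases, with a median of -0.91, and the 5 became 3 without fresh replicate 1. Gata3, the regulator of type 2 helpers, fell from 54.1, 52 and 60.8 to 21.3, 19.8 and 17.3 CPM, Bcl6, that of follicular helpers, from 31.8, 26.1 and 31.9 to 4.39, 4.6 and 4.16 CPM. Zbtb7b, which fixes the CD4 fate, fell by 1.31, Runx3 by 1.33 and Ikzf3, an Ikaros family factor, by 0.91. Foxp3, the regulatory T cell factor, stood at 1.2, 2.26 and 1.76 CPM in the fresh and 3.85, 2.94 and 2.95 CPM in the IL-1b-treated libraries (log2 fold change 0.92 ± 0.35, adjusted p = 0.0245), and its call was lost with library size alone (adjusted p = 0.0626) and without fresh replicate 1 or IL-1b-treated replicate 1 (adjusted p = 0.112 and 0.0817) and its sign changed on TPM. Tbx21, the regulator of type 1 helpers, had 26 counts over the fresh and 1 over the IL-1b-treated libraries, a ratio of 24.1 (exact 95% counting interval 3.95 to 986).

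Regulators of the naive and quiescent state split, with 15 of 29 lower and 9 higher and a median of -0.15, but 10 lower and 16 higher with the trend removed. Foxo1, a factor that maintains the naive state, fell from 485, 493 and 503 to 143, 136 and 150.2 CPM (log2 fold change -1.79 ± 0.04, adjusted p = 8.77e-21). Tcf7 and Lef1, factors of T cell identity and naivety, fell too, Tcf7 from 1589, 1538 and 1599 to 790.5, 802 and 829.9 CPM and Lef1 by 0.44. Slfn2, which keeps T cells at rest, rose from 369, 375 and 363 to 1232, 1253 and 1231 CPM, as did Tsc22d3, the glucocorticoid-induced leucine zipper, from 177, 164 and 169 to 441, 448 and 428 CPM. Bach2, a repressor of effector genes, was not called at 0.04, was higher with the trend removed (0.42) and lower with library size alone (-0.13). Klf2 and Txnip were higher by 0.12 and 0.22 with TMM and changed sign on TPM, and the call of Klf2 was lost without fresh replicate 2 or IL-1b-treated replicates 2 or 3.

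Homing receptors had 12 members up and 7 down among 22, with a median of 0.26, but TPM counts of 5 and 11 and a TPM median of -0.3, where all genes lay at -0.5. S1pr1, the receptor for leaving the node, rose from 583, 593 and 581 to 946, 954 and 943 CPM. Ccr7, which guides naive cells to the T cell zone, was higher by 0.44 with TMM and lower on the TPM scale. P2ry10, a lysophospholipid receptor, rose by 1.96. The 2 chains of the integrin LFA-1, Itgal and Itgb2, fell together, Itgal from 675, 669 and 684 to 240.1, 238 and 256 CPM and Itgb2 from 526, 521 and 504 to 198, 218 and 209 CPM.

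**Figure D4:**
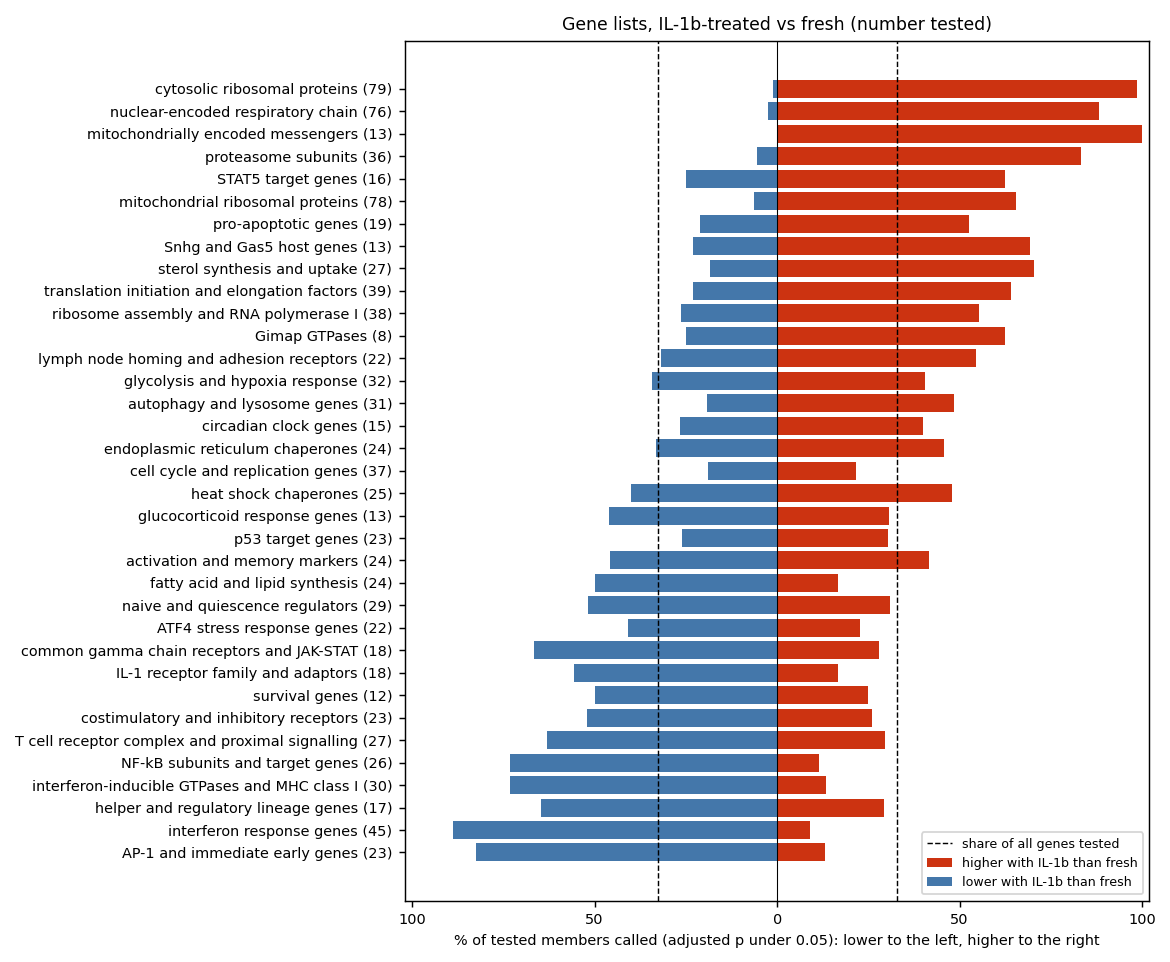
Share of the tested members of each gene list called higher (right) or lower (left) in IL-1b-treated than in fresh cells, ordered by median log2 fold change, with the number tested in brackets and the shares over all genes (32.9% higher, 32.6% lower) as dashed lines. Ribosomal protein, respiratory chain and proteasome lists stand at the top, and immediate early and interferon response lists at the bottom.

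Of 79 cytosolic ribosomal protein genes 78 were higher and 1 lower, with a median of 1.21, which was 0.61 on the TPM scale and 0.78 with the trend removed. These transcripts are short, the class that was higher as a whole. Rpl24 stood at 334, 329.6 and 315 CPM in the fresh and 1179, 1204 and 1190 CPM in the IL-1b-treated libraries (log2 fold change 1.87 ± 0.03, adjusted p = 6.23e-23), Rps6 rose by 1.2 and Rpl7 and Rps7 by 1.4 and 1.3. The increase had 2 steps, with a median of 0.59 from fresh to cultured cells and again of 0.59 from cultured to IL-1b-treated cells, where 78 of the 79 genes were higher with the cytokine (15.6% of all genes were). With the trend removed the 2 medians were 0.361 and 0.391, and 75 of the 79 were higher with the cytokine. The median of all genes in these 2 steps was then 0.03 and 0.04. For Rpl24 the cultured libraries had 821 ± 23.1 CPM.

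Factors that build and run ribosomes moved less evenly. Ribosome assembly and RNA polymerase I genes numbered 21 up and 10 down among 38 (median 0.28, on the TPM scale -0.34 with TPM counts of 10 and 20). Relative to the median of all genes, that of the list was 0.292 with TMM and 0.158 on the TPM scale. Npm1, a chaperone of ribosome assembly in the nucleolus, had 537, 552 and 559 CPM in the fresh and 1601, 1533 and 1506 CPM in the IL-1b-treated libraries (log2 fold change 1.49 ± 0.03, adjusted p = 5.89e-21), and nucleolin, Ncl, rose from 564, 589 and 559 to 899.8, 881 and 866 CPM. The assembly factor gene Wdr12 and the small ribonucleoprotein gene Nop10 rose by 1.56 and 1.58. Translation factors numbered 25 up and 9 down among 39 (median 0.52, on the TPM scale -0.08 with TPM counts of 15 and 19, or 0.529 and 0.423 relative to the median of all genes). The elongation factor gene Eef1a1 rose 1.92-fold and Eef1b2 1.78-fold, and the initiation factor subunits Eif3e and Eif3m by 1.56 and 1.42 on the log2 scale.

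Mitochondrial genes rose with them. Nuclear-encoded respiratory chain subunits were higher in 67 of 76 cases and lower in 2 (median 0.98, 0.47 on the TPM scale with TPM counts of 47 and 18, 0.52 with the trend removed), and all 13 messengers made in the mitochondrion were higher, with a median of 0.93, which became 0.34 with 10 higher and 1 lower once the trend was removed and 0.32 on the TPM scale. Ndufa6 of complex I stood at 39.6, 38.5 and 38.7 CPM in the fresh and 134, 136 and 135 CPM in the IL-1b-treated libraries (log2 fold change 1.79 ± 0.06, adjusted p = 1.09e-17). Atp5j2 and Atp5f1 of the ATP synthase rose by 1.4 and 1.19 and Uqcrc2 of complex III by 1.16. Of the mitochondrially made messengers, mt-Nd5 and mt-Nd6 rose by 0.89 and 0.97, mt-Co1 by 0.93 and mt-Nd1 by 1.08, in 1021, 1049 and 1036 against 2302, 2164 and 2093 CPM. The ribosomes of the mitochondrion itself followed, with 51 of 78 protein genes higher and 5 lower. With the trend removed 43 were higher and 13 lower, and the TPM counts were 29 and 22. Mrpl20, Mrpl24 and Mrpl30 rose by 1.79, 0.73 and 1.1, and Mrpl18 went from 29.2, 28.3 and 27.9 to 67.3, 72.6 and 74.7 CPM. With IL-1b rather than without, 61 of the 76 nuclear and 12 of the 13 mitochondrially encoded genes were higher (15.6% of all genes were). With the trend removed these became 48 and 11, and the medians went from 0.451 to 0.252 and from 0.457 to 0.321. The median of all genes in that comparison was then 0.04.

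Proteasome subunits numbered 30 up and 2 down among 36 (median 0.92, on the TPM scale 0.33 with 11 down). Psma5, of the outer ring of the core, went from 35.7, 36.8 and 37.6 to 112, 107 and 105 CPM (log2 fold change 1.56 ± 0.06, adjusted p = 9.54e-17), Psmb1, of the catalytic ring, rose by 1.26, Psma3 by 1.21 and Psmc3, an ATPase of the cap, by 0.97. Autophagy and lysosome genes had 15 members up and 6 down among 31, with TPM counts of 5 and 16, but 19 and 4 with the trend removed. Map1lc3b and Gabarap, the ubiquitin-like proteins of the autophagosome membrane, rose by 0.82 and 0.82. Ctsd, a lysosomal protease, rose by 0.63, a call lost in the TPM values (adjusted p = 0.244 with limma on log2(TPM + 1)). Atg101, of the initiating kinase complex, fell from 178, 171 and 169.5 to 33.5, 34.6 and 33.9 CPM, against 24.8 ± 2.61 CPM in culture alone (0.46 ± 0.07, adjusted p = 4.24e-05).

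Sterol synthesis and uptake genes numbered 19 up and 5 down among 27 (median 0.55, on the TPM scale 0.03 with TPM counts of 10 and 8, and with the trend removed 0.75). Relative to the median of all genes, that of the list was 0.555 with TMM and 0.535 on the TPM scale. Acat2, at the entry of the pathway, had 24.3, 25.8 and 21.5 CPM in the fresh and 107, 110.4 and 106 CPM in the IL-1b-treated libraries (log2 fold change 2.17 ± 0.06, adjusted p = 2.57e-18). Insig1, the sterol-sensing brake that the pathway induces against itself, rose from 33.4, 32.1 and 32.5 to 95.6, 105 and 106 CPM, the sterol carrier gene Stard4 by 1.57 and the demethylase gene Msmo1 by 1.5. Hmgcs1, the synthase before the rate-limiting step, rose from 55.2, 51.7 and 54.8 to 77.8, 73.8 and 83.8 CPM, a difference not seen on the TPM scale. Its 250 bases before the start (RefSeq, GRCm38.p6, chr13:119690101-119690350, plus strand) are shown because it was the only 1 of 20 promoters of this list to hold the sterol regulatory element TCACNCCAC (either strand, 1.04% of all promoters), in capitals.
Hmgcs1: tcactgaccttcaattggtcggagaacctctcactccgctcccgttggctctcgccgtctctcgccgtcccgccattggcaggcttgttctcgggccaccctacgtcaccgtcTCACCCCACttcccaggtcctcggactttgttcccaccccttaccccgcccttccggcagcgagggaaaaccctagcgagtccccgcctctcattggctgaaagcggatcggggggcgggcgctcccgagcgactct
The match begins 137 bases before the start. The CCAAT box, CCAAT on either strand, which sterol genes often use beside that element, lay in 17 of the 20 (85.0%), against 34.5% of all promoters. It was not particular to this list, since 19 of 22 promoters of endoplasmic reticulum chaperones (86.4%) held it too.

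Fatty acid and lipid genes had 12 members down and 4 up among 24, with a median of -0.15, though 9 rose and 9 fell with the trend removed. Scd2, a desaturase, fell from 83.6, 87.7 and 85.2 to 9.38, 10.2 and 8.25 CPM (log2 fold change -3.2 ± 0.1, adjusted p = 5.81e-18), and Abca1, the cholesterol exporter, from 23.8, 27.7 and 28.6 to 2.58, 4.38 and 3.22 CPM. Srebf1, the master regulator of fatty acid synthesis, fell by 1.03, while the elongase gene Elovl5 rose by 1.11. Glycolysis and hypoxia genes had 13 members up and 11 down among 32, with TPM counts of 6 and 17, but 18 and 6 with the trend removed. Eno1 and Pgk1, glycolytic enzymes, went from 517, 525 and 529 to 1630, 1633 and 1650 CPM and from 140.1, 123 and 136 to 267, 269.7 and 279.7 CPM. Bnip3l, a mitophagy receptor, rose by 1.02, and Ddit4, an inhibitor of the growth kinase mTORC1, fell from 110.2, 96.5 and 106 to 12, 14.1 and 16.6 CPM.

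Stress genes moved in both directions. Heat shock chaperones had 12 members up and 10 down among 25 (TPM counts 2 and 18), with the very large fall of Hspa1a and Hspa1b given above and that of Hsp90ab1 from 2032, 2060 and 2072 to 938, 888 and 910.2 CPM. Tcp1, of the chaperonin that folds actin and tubulin, rose by 1.29. The constitutive Hsp70 gene Hspa8 was higher by 0.43 and changed sign on TPM. Endoplasmic reticulum chaperones had 11 members up and 8 down among 24 (TPM counts 3 and 15), with the disulfide isomerase gene Pdia4 up by 1.38, the translocon gene Sec61b up by 1.22, and Hyou1 and Calr down by 0.99 and 0.51. Targets of the stress factor ATF4 had 9 members down and 5 up among 22, in opposite directions even among its feedback genes. Trib3, a pseudokinase that restrains ATF4, rose from 3.6, 3.86 and 5.56 to 32.6, 34.5 and 28.3 CPM, and Ppp1r15a, the phosphatase subunit that restarts translation, fell from 168, 166 and 166 to 21.8, 20.4 and 22.2 CPM. The amino acid carrier gene Slc1a5 and the alanyl-tRNA synthetase gene Aars fell by 0.61 and 0.93.

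Of 37 cell cycle genes 8 were higher (21.6%) and 7 lower (18.9%), both under the shares over all genes (TPM counts 3 and 12, but 11 and 1 with the trend removed). Mki67, the marker of dividing cells, had 5.13, 6.89 and 7.81 CPM in the fresh and 4.87, 5.89 and 3.49 CPM in the IL-1b-treated libraries and was not called (log2 fold change -0.47 ± 0.22, adjusted p = 0.0656), though it was called lower without fresh replicate 1 or IL-1b-treated replicate 2 (adjusted p = 0.0214 and 0.0226). Pcna, the replication clamp, rose from 99.8, 103 and 105 to 277, 247 and 248 CPM (log2 fold change 1.33 ± 0.05, adjusted p = 3.78e-17) and was 169 ± 3.15 CPM in culture alone (0.6 ± 0.04, adjusted p = 5.37e-10). The helicase subunit Mcm7 rose by 0.92, and Ccnd2, the cyclin that pairs with Cdk6, fell by 0.49, with the other sign once the trend was removed. Glucocorticoid response genes had 4 members up and 6 down among 13, with Pik3ip1 up by 0.77 and Dusp1 down by 2.08. Clock genes had 6 members up and 4 down among 15 (TPM counts 2 and 8, but 6 and 1 with the trend removed). Per2 went from 10.9, 9.68 and 13.8 to 1.56, 1.94 and 3.09 CPM and Per1 fell by 0.84 with a call lost once the trend was removed (adjusted p = 0.221), while Nr1d2 and Dbp rose by 0.94 and 0.78.

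The Gimap GTPases, which support lymphocyte survival, had 5 members up and 2 down among 8. Gimap4, Gimap6 and Gimap9 rose by 1.03, 0.85 and 0.77, and Gimap8, the longest of the named, fell from 629, 637 and 612 to 415, 415 and 409 CPM. Host genes of small nucleolar RNAs had 9 members up and 3 down among 13, or 5 higher with the trend removed, and 1 lower without fresh replicate 1 or IL-1b-treated replicate 2. Snhg8 went from 34.4, 39.6 and 43.1 to 75.7, 92 and 85.9 CPM, and Snhg20 and Epb41l4aos, the latter antisense to another gene, rose by 1.15 and 1.58. Gas5, the best known of them, was higher by 0.78 with TMM and had the other sign with the trend removed.

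Of the 4884 called genes with clearly separated libraries and at least 10 TPM in a group, 2348 also differed from cultured cells in the same direction. Both comparisons share the IL-1b-treated libraries, so part of this agreement is built in. By size against culture, the 5 largest increases were in Hist1h2ap, Ss18l2, Coa6, Cebpzos and Bola1. Coa6, an assembly factor of cytochrome c oxidase, stood at 8.02, 6.83 and 8.66 CPM in fresh, 9.58, 9.41 and 10.4 CPM in cultured and 18.4, 20.7 and 17.8 CPM in IL-1b-treated libraries (against cultured 0.95 ± 0.13, adjusted p = 7.90e-06). The mitochondrial iron-sulphur gene Bola1 went from 3.52 through 6.95 to 12.7 CPM and the small gene Ss18l2 from 4.3 through 5.78 to 11.6 CPM. Hist1h2ap, 1 of many near-identical histone genes whose reads may be shared, had 3.93, 3.8 and 9.12 CPM, and Cebpzos, opposite in strand to Cebpz, had 4.61, 5.14 and 9.58 CPM and lost its call against fresh with the trend removed (adjusted p = 0.108). For Hist1h2ap and Cebpzos the cultured libraries overlapped the fresh ones, while the IL-1b-treated libraries lay above both.

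Lars2, Ramp3, Oplah, Acvrl1 and Abcb8 were the 5 with the largest decreases against culture. Lars2, which was higher in cultured than in fresh cells, is described below. Oplah, an enzyme of glutathione turnover, had 7.44, 5.76 and 5.98 CPM in fresh, 3.06, 3.53 and 3.05 in cultured and 1.98, 1.79 and 1.81 in IL-1b-treated libraries. Abcb8, a transporter of the inner mitochondrial membrane, fell from 17.7 through 11.2 to 7.1 CPM. Ramp3 and Acvrl1 were low in both kinds of culture, at 1.27 and 0.435 CPM and 2.2 and 1.33 CPM.

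In 17 of those 4884 genes the 2 kinds of culture moved to opposite sides of fresh cells by the test. Lars2, the leucyl-tRNA synthetase of the mitochondrion, was the widest, at 116, 125 and 121 CPM in fresh, 377, 390.0 and 373 CPM in cultured and 65.6, 59.2 and 65.9 CPM in IL-1b-treated libraries (log2 fold change -0.92 ± 0.05, adjusted p = 6.27e-14 against fresh, -2.58 ± 0.05, adjusted p = 5.77e-21 against cultured). The mitochondrial ribosomal RNA mt-Rnr2 was looked up after these values were seen. It had 796 ± 27.0 CPM in fresh, 684 ± 34.1 in cultured and 985 ± 40.2 in IL-1b-treated libraries. Any link between it and Lars2 was not tested. Malat1, an abundant nuclear noncoding RNA, had 2120, 2124 and 2137 CPM, 2360, 2437 and 2370 CPM and 1588, 1530 and 1533 CPM in the same order (-0.62 ± 0.02, adjusted p = 3.85e-15 against cultured). Zer1, Polr1a and Map4k2 followed the same pattern at smaller size, below fresh by 0.26, 0.17 and 0.07 with IL-1b, and all 3 had the other sign with the trend removed. The call of Map4k2 against fresh was also lost without fresh replicates 1 or 3 or IL-1b-treated replicates 1 or 3.

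The reverse pattern, below fresh in culture and above it with IL-1b, was led by Dapl1, a gene of naive and resting T cells, with 39.1, 36 and 38.3 CPM in fresh, 32.1, 34.2 and 33.1 in cultured and 49.9, 50.4 and 47.6 in IL-1b-treated libraries. Rpl22l1, a ribosomal protein paralogue, had 101, 93.7 and 103, 84.6, 87.8 and 84.1 and 120.1, 122 and 128 CPM. Ptprcap, the phosphatase-associated protein of CD45, Tgtp1, an interferon-inducible GTPase with a near-identical copy, and Bzw2, a regulator of start codon choice, were above fresh by 0.19, 0.18 and 0.16. All 5 lay below fresh on the TPM scale, and Dapl1 and Rpl22l1 also with the trend removed, so their side of fresh changed with the scaling. Their higher level with IL-1b than without (from 0.29 for Bzw2 to 0.57 for Dapl1 on the log2 scale) is given here with TMM scaling only.

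**Figure D5:**
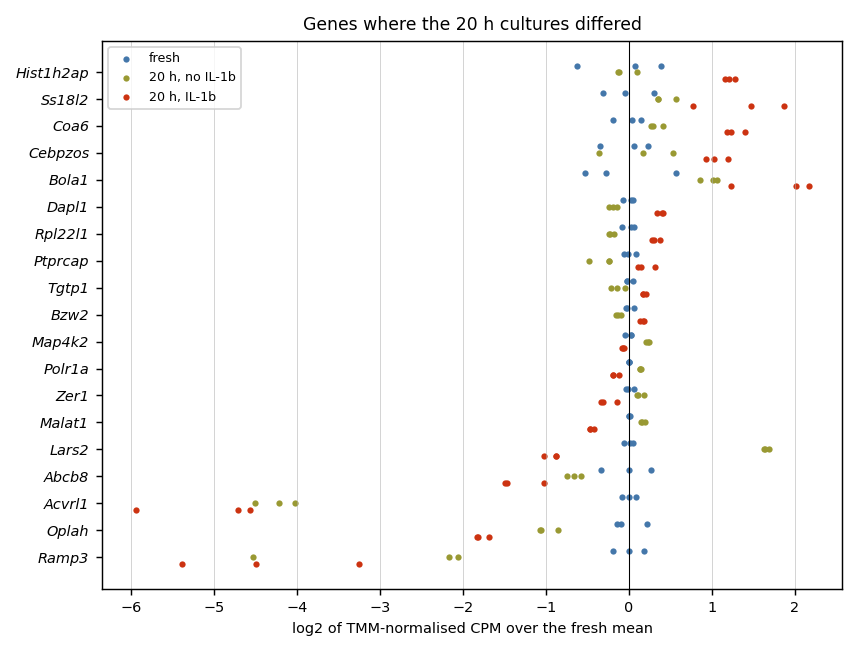
Log2 ratio of each library's TMM-normalised CPM to the mean of the fresh libraries, for the genes with the largest steps between the 2 kinds of culture in each direction, 1 point per library. Lars2 lies above fresh in the 3 cultured and below it in the 3 IL-1b-treated libraries, and Dapl1 and Rpl22l1 show the reverse.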

How the data were processed

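Polyadenylated RNA of 9 libraries was sequenced, and the submitters' processing notes name STAR, RSEM and mm10, without versions. The sources used here do not give read trimming, strand setting or annotation release. The deposited values are RSEM's expected counts per gene, which the authors estimated, sharing out reads that fit several genes. Their deposited TPM values were used only as a second scale, which keeps no depth. Expected counts were rounded to whole numbers (5.83% were not whole). Genes were filtered with filterByExpr, scaled with TMM and tested with edgeR 4.0.16 by its quasi-likelihood test, all 9 libraries in 1 fit, with Benjamini-Hochberg adjustment over 13043 genes and a threshold of 0.05. SE is the absolute log2 fold change over the square root of F. Totals of 13518814 to 23056686 counts make 3 counts equal to 0.130 to 0.222 CPM, and intervals cover counting error only. Alternatives used DESeq2 1.42.0, limma 3.58.1, other scalings and filters, a GC and length trend removed with mgcv 1.9.3, a replicate block and each library left out. The script was tested on simulated data.

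The groups are the 6 libraries' own titles. Genes named are the 15 largest changes each way among called genes of at least 10 TPM, the 5 largest steps each way from culture without IL-1b, up to 5 each way on opposite sides of fresh cells, up to 4 of the smallest p in each list, and a set panel, some of whose genes are not reported here. Members and gene lists were chosen with earlier results of these data known. Of 55487 gene IDs, 55227 matched a symbol. Promoter letters came from RefSeq.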

Additional observations from a re-analysis of the deposited data

How the results depend on the processing

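Over 21 alternatives, between 7878 and 8926 genes were called against 8539, and leaving out each library in turn gave 8109 to 8539. Library size alone moved the split to 3408 higher and 5281 lower, with 902 and 1728 at least 2-fold, and the GC and length trend removed moved it to 4581 and 3364. TPM values moved it most. With limma on log2(TPM + 1) 1527 genes were higher and 7113 lower, with 226 and 2519 at least 2-fold, and with log2(TPM + 0.1) the counts were 1546, 7084, 356 and 3382. The median of all genes moved from -0.01 to -0.18 with library size alone and to -0.50 on the TPM scale, and the cause was not tested. Between libraries of the same replicate number in 2 groups, the correlations of deviations from the group means lay between -0.022 and 0.019. Libraries of different numbers gave -0.051 to 0.033. Replicates drawn from 1 pool would give such values too, so they cannot decide whether equal numbers mark a shared preparation. A fit with the replicate block called 8454 genes, or 7878 with the trend removed too. Of 217 named genes tested, 182 kept direction and side of the threshold under all 21 alternatives that could give a value, and 10 changed their call when 1 library was left out. With limma on log2(TPM + 1) the log2 fold change had the other sign in 16 named genes, at Bach2 -0.53, Bzw2 -0.38, Ccng1 -0.0213, Ccr7 -0.12, Dapl1 -0.24, Foxp3 -0.0598, Hspa8 -0.0761, Il2rb -0.28, Klf2 -0.44, Myc -0.41, Pecam1 -0.12, Ptprcap -0.39, Rpl22l1 -0.24, Sigirr -0.083, Tgtp1 -0.37 and Txnip -0.51. With limma on log2(TPM + 0.1) the log2 fold change had the other sign in 17 named genes, at Bach2 -0.54, Bzw2 -0.38, Ccng1 -0.0216, Ccr7 -0.12, Dapl1 -0.24, Foxp3 -0.0861, Hmgcs1 -8.38e-05, Hspa8 -0.0761, Il2rb -0.31, Klf2 -0.44, Myc -0.41, Pecam1 -0.12, Ptprcap -0.39, Rpl22l1 -0.24, Sigirr -0.0839, Tgtp1 -0.38 and Txnip -0.51. With library size alone the log2 fold change had the other sign in 3 named genes, at Bach2 -0.13, Bzw2 -0.00563 and Klf2 -0.0487. With the GC and length trend removed the log2 fold change had the other sign in 7 named genes, at Ccnd2 0.0389, Dapl1 -0.34, Gas5 -0.0724, Map4k2 0.40, Polr1a 0.17, Rpl22l1 -0.53 and Zer1 0.20. With the replicate block and the trend removed together the log2 fold change had the other sign in 7 named genes, at Ccnd2 0.0389, Dapl1 -0.34, Gas5 -0.0718, Map4k2 0.40, Polr1a 0.17, Rpl22l1 -0.53 and Zer1 0.20. The cause of these sign changes was not tested. Genes under about 3 counts per library (0.130 to 0.222 CPM) could not be followed at this depth.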
